A study of Mus musculus with 2 samples.

Results

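The genes described here encode epithelial cell junctions, keratins, apical polarity proteins and their regulators, in embryonic endothelial cells with and without deletion of Snail1. The members were 45 genes listed by symbol, and each was matched to the probe sets that carried its symbol alone in the platform annotation. All 45 were on the array, through 91 probe sets, out of 18193 genes in all. Of the 45, 30 lay above the level used to filter dim genes and are compared by size below.

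The study used primary endothelial cells, which form the inner lining of vessels, cultured from E10.5 mouse embryos (strain C57/BL6, as labelled) in DMEM with 20% fetal bovine serum and endothelial growth factors. The embryos of both groups were Snail1f/f, that is, they carried floxed Snail1 alleles that Cre recombinase can delete. Cells of the WT group received adeno-βGal, an adenovirus with β-galactosidase, and cells of the Snail1 KO group received adeno-Cre; both recovered for days before RNA was taken, and 250 ng of total RNA went onto each array. Each group is 1 array without a replicate, so no difference below could be set against the spread between cultures and none was tested. The virus and Cre differ between the groups along with Snail1, and their effects cannot be told apart.

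Epithelial cells hold together through adherens junctions built on E-cadherin, tight junctions built on claudins, and desmosomes, which anchor keratin filaments. The Par and Crumbs complexes mark their apical side. Snail1 is a zinc finger repressor best known for binding E-box sequences in promoters of epithelial genes, among them the E-cadherin gene Cdh1, during epithelial-mesenchymal transition. Endothelial cells build junctions on VE-cadherin and claudin-5 and use vimentin filaments in place of keratins, but share plakoglobin, desmoplakin and the Par complex with epithelia. The question asked of these genes was which of them differed in endothelial cells given Cre to delete Snail1.

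Snai1, the targeted gene, had log2 values of 5.33 on the WT array and 3.59 on the Snail1 KO array, 3.35-fold lower in its only probe set; whether its probes lie in the deleted part is not known. The related repressors Snai2 and Zeb1 differed by -0.25 and 0.06 log2 units in their brightest probe sets. Over all 4 probe sets of Zeb1 the differences were -0.01 to 0.96. The 5 probe sets of Zeb2 differed by -1.37, in the brightest of them, to 0.20. All 10 listed markers of endothelium were above the filter level, 7 higher and 3 lower, with Cdh5 (VE-cadherin) at 11.34 and 11.46 and Pecam1 at 10.18 and 10.22. The arrays correlated with a Pearson r of 0.99 over probe sets, and the log2 differences of the 12874 analysed genes had a robust SD of 0.32. The median difference of those genes was -0.01.

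The filter level was a log2 value of 3.97, the 40th percentile of probe sets, and it is not a test of detection. By their brightest probe set, 27 members were above this level on both arrays, 5 on 1 array only and 13 on neither. Too dim on both arrays were Cdh1, Cldn1, Cldn6, Cldn7, Marveld3, Pkp1, Krt5, Krt7, Krt14, Muc1, Esrp1, Ovol1 and Ovol2. These 13 genes had log2 values of 2.59 to 3.85 on the WT array and of 2.51 to 3.92 on the Snail1 KO array, and differences of -0.44 to 0.16. Cdh1 (E-cadherin) was at 2.59 and 2.51, at the 7.34th and 5.86th percentiles of probe sets. The transcription factor genes Ovol1 and Ovol2 were at 3.01 and 2.91 and at 3.75 and 3.92. At this level a difference cannot be read, in either direction. Cldn4 and Krt20 passed the level on the WT array only, and Cldn15, Dsc2 and Pard6b on the Snail1 KO array only.

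**Figure D1:**
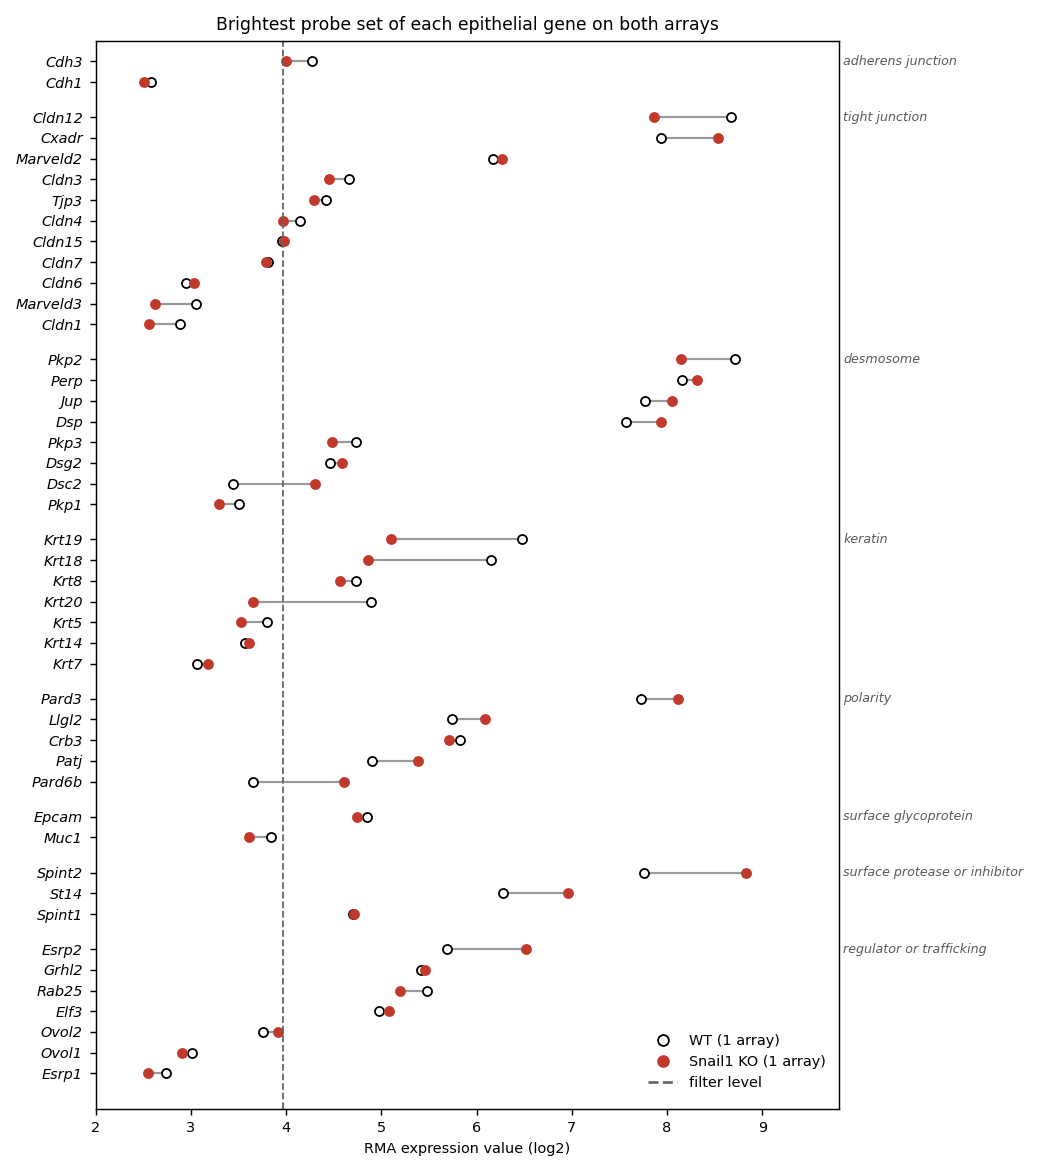
RMA expression values (log2, horizontal axis) of the brightest probe set of each of the 45 genes, ordered by role, on the WT array (open circles) and the Snail1 KO array (red circles); the dashed line is the filter level of 3.97. Krt18, Krt19 and Krt20 lie to the left on the Snail1 KO array, while Spint2, Esrp2, St14 and Pard6b lie to the right.

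Among the 30 members analysed, 16 were higher and 14 lower on the Snail1 KO array, with a median difference of 0.02 log2 units and a mean of -0.02. Of all analysed genes, 48.9% were higher and 50.9% lower, the shares to set beside every such count here. The members therefore did not differ in a common direction. Spint2 was the 1 member at least 2-fold higher, against 0.971% of all analysed genes. Krt18, Krt19 and Krt20 were at least 2-fold lower, 3 of 30, against 1.84% of all analysed genes. At 1.5-fold, 5 members were higher (Spint2, Pard6b, Esrp2, St14 and Cxadr), against 5.06% of all genes, and 4 were lower (the 3 keratins and Cldn12), against 6.08%. Krt20 and Pard6b exceeded the filter level only on the array on which they were high, so the filter favours members with such differences.

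**Figure D2:**
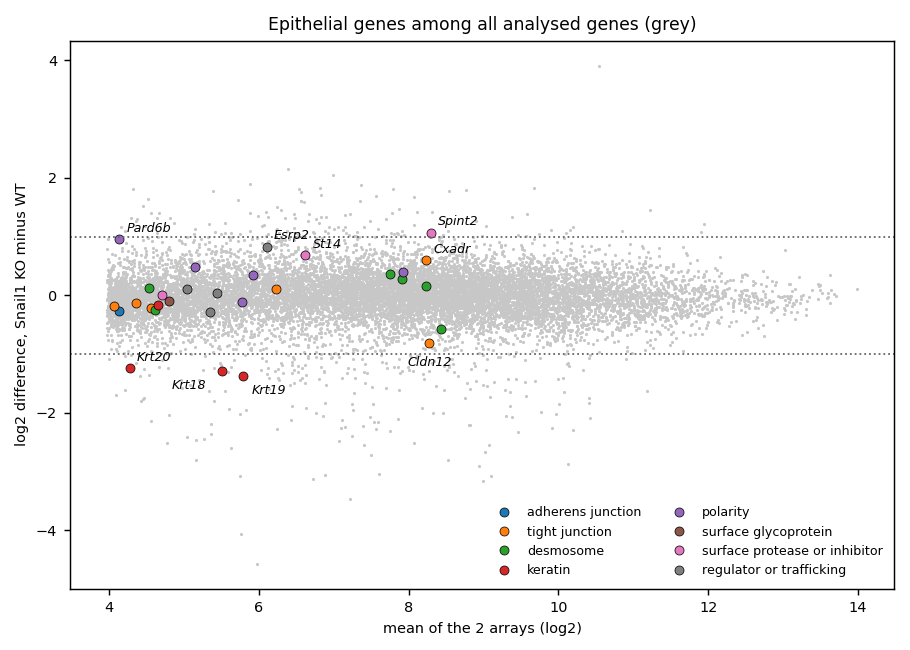
Log2 difference (Snail1 KO minus WT, vertical axis) against the mean log2 value of the arrays (horizontal axis) for the 12874 analysed genes (grey) and the 30 analysed members (coloured by role); dotted lines mark 2-fold. Most members lie within the grey band, 3 keratins lie below the lower dotted line and Spint2 lies just above the upper dotted line.

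The largest differences among the members were those of 3 keratins. Keratin filaments are built from pairs of a type I and a type II keratin, and Krt18 (type I) pairs with Krt8 (type II) in simple epithelia. Krt19, a type I keratin of simple and ductal epithelia, was at 6.47 on the WT array and 5.10 on the Snail1 KO array, 2.59-fold lower. Krt18 was at 6.15 and 4.86, 2.46-fold lower. Krt20, a type I keratin of intestinal and urothelial cells, was at 4.89 and 3.65, 2.36-fold lower. For Krt19, 124 of the 12874 analysed genes had a difference as low or lower, and for Krt18 and Krt20 the numbers were 142 and 160. Each of these 3 genes had 1 probe set, so no other probe set could be compared.

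Krt8, the type II partner, was at 4.73 and 4.57, a difference of -0.16, and its other probe sets differed by -0.22 and 0.00. All 3 keratins past 2-fold were therefore type I, while the type II members were either dim on both arrays (Krt5 and Krt7) or close to equal (Krt8). Analysed keratins outside the members did not divide by type. Krt10 (type I) and Krt80 (type II) differed by -0.54 and -0.49. Krt23 (type I) differed by 0.58, and Krt4 and Krt6a (type II) by -0.10 and 0.01. Krt14, type I, was dim on both arrays, and a probe set shared by Krt17 and Krt14 was at 4.30 and 4.38. Since the cells were measured in bulk, fewer cells with these keratins and less keratin RNA per cell cannot be told apart.

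In the list of other keratins, filament proteins and plakins, 11 of 16 genes were analysed, 7 of them higher and 4 lower, none 2-fold lower, with a median of 0.01. Vim (vimentin), the main filament protein of endothelial cells, was at 13.39 and 13.56. Ppl, which encodes periplakin, a plakin that links desmosomes to filaments, was the gene of this list past 2-fold, at 5.76 on the WT array and 7.37 on the Snail1 KO array, 3.05-fold higher in its only probe set.

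Most of the smooth muscle and pericyte markers were lower on the Snail1 KO array. Of 6 listed, 5 were analysed, 4 lower and 1 higher, beside 50.9% of all analysed genes lower. At least 2-fold lower, as were 1.84% of all analysed genes, were Tagln and, in its brightest probe set, Acta2. The 3 probe sets of Acta2 differed by -1.85 to 0.20. The other analysed markers, Cnn1, Pdgfrb and Cspg4, differed by -0.81, -0.40 and 0.10. Linear values of the 6 summed to 3368 on the WT array and 848 on the Snail1 KO array. Nearly all of this sum came from Acta2 and Tagln, and the 4 markers without them summed to 105 and 80.0, respectively. Myh11 was the marker below the filter, at 4.16 and 3.25. Their part in the keratin difference was not tested. Of 6 mesothelial markers, Msln, Upk3b, Wt1 and Lrrn4 were dim on both arrays. Gpm6a and Upk1b were 1.93-fold and 1.35-fold higher, with -0.03 to 0.84 over the 4 probe sets of Upk1b. Linear values of the 6 summed to 316 and 551, and most of this sum came from Gpm6a, at log2 values of 7.93 and 8.87. The visceral endoderm and liver list summed to 287 and 270 over 8 genes, with Afp, Alb and Foxa2 dim on both arrays. Of the 5 surface ectoderm markers, Perp, also expressed outside ectoderm, was the 1 analysed. Of 5 leukocyte markers, Cd68 and Csf1r were analysed, with differences of -0.08 and -0.25, and Ptprc, Tyrobp and Itgam were dim on both arrays. The fibroblast list had 3 of 5 genes analysed, all higher, by at most 0.31. Of the 9 listed epithelial markers, all of them members described here, 6 were analysed, 1 higher and 5 lower.

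All 5 polarity members were analysed. Of these, 4 were higher, beside 48.9% of all analysed genes, none of them past 2-fold, and the median was 0.39. For Pard6b, 1 of the 4, only the Snail1 KO value exceeded the filter level. Pard6b, an adaptor that ties atypical protein kinase C to the Par complex, was at 3.66 on the WT array and 4.61 on the Snail1 KO array, 1.94-fold higher, and its other, dimmer probe set differed by 0.41. Pard3, the scaffold of that complex, was at 7.72 and 8.11, 1.31-fold higher, and all 4 of its probe sets were higher, by 0.28 to 0.66. Patj, a PDZ scaffold of the Crumbs complex, was at 4.91 and 5.39. Its other probe sets, all with means below the filter level, differed by 0.03 to 0.99. Llgl2, a basolateral protein that opposes the Par complex, was at 5.74 and 6.09. Crb3, the Crumbs protein of epithelia, reported as repressed by Snail in epithelial cell lines, was at 5.82 and 5.71, and its probe sets differed by -0.23 to 0.06.

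Of 15 listed polarity genes that are shared with other cell types, 13 were matched and analysed, with 9 higher, 4 lower and a median of 0.27, beside 48.9% of all analysed genes higher. At least 2-fold higher, as were 0.971% of all analysed genes, were Prkcz, the zeta form of atypical protein kinase C, at 7.98 and 9.08 (2.14-fold higher, with 0.53 to 1.55 over its 3 probe sets), and Pard6g, another Pard6 adaptor, at 10.30 and 11.39 (2.13-fold higher, with 2.04 in its other probe set). Pard6a was 1.39-fold higher. Prkci, the iota form of the kinase, differed by -0.11, and by 0.22 in its other probe set. Among the genes of the Par complex, all 3 Pard6 genes, Pard3 and Prkcz were thus higher on the Snail1 KO array in their brightest probe sets and Prkci was not.

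**Figure D3:**
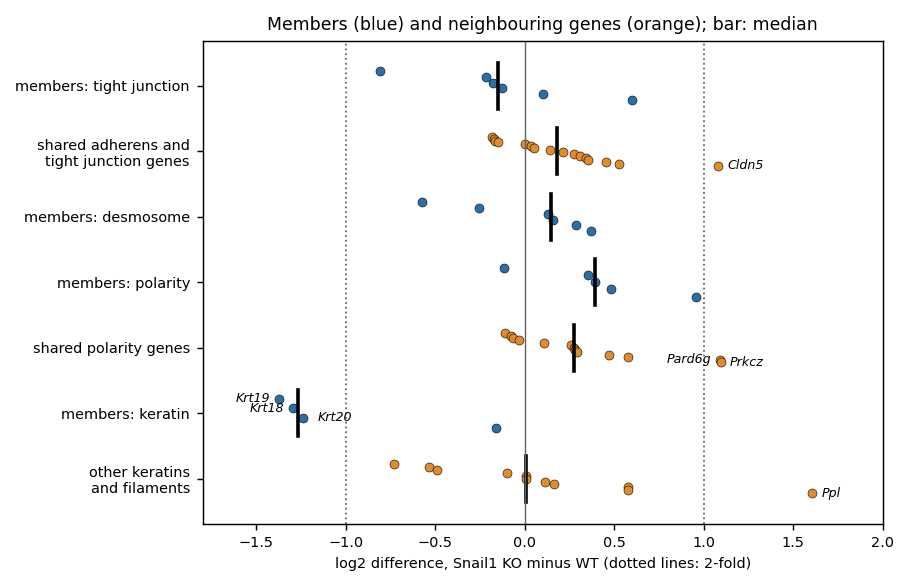
Log2 difference (Snail1 KO minus WT, horizontal axis) of the analysed members of 4 roles (blue) and of analysed genes in 3 lists of neighbouring genes (orange); each point is a gene, bars are medians and dotted lines mark 2-fold. The 4 analysed keratin members have a median of -1.27 with Krt8 apart from the other 3, beside -0.28 over all 7 keratin members. The polarity members and shared polarity genes have medians of 0.39 and 0.27.

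Tight junction members were divided. Of 11 genes 6 were analysed, 2 higher and 4 lower, with a median of -0.15. Cldn12, a claudin found in epithelia and in other tissues, was at 8.67 on the WT array and 7.86 on the Snail1 KO array, 1.75-fold lower, and its second probe set was also lower, by 0.66 log2 units (6.88 and 6.22). The epithelial claudins Cldn3 and Cldn4 were near the filter level, at 4.67 and 4.45 and at 4.15 and 3.97. Cldn15 was at 3.95 and 3.98, and Tjp3, the scaffold ZO-3, at 4.42 and 4.29. Marveld2 (tricellulin), which seals the corners where 3 cells meet, was at 6.17 and 6.27.

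Cxadr encodes the coxsackievirus and adenovirus receptor, a tight junction protein to which adenoviruses, the vectors used in both groups, bind. It was at 7.93 and 8.53, 1.51-fold higher on the Snail1 KO array, in its brightest probe set. Its probe sets disagreed. A nearly equally bright probe set differed by 0.20 (8.09 and 8.29), another by 1.27 (5.40 and 6.67) and yet another by -0.05, so no single size can be given for the gene. In the list of shared adherens and tight junction genes, 16 were analysed, 11 higher and 4 lower, with a median of 0.18, beside 48.9% of all analysed genes higher. Cldn5, the endothelial claudin, was past 2-fold, at 11.36 and 12.44, as were 0.971% of all analysed genes in the same direction.

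**Figure D4:**
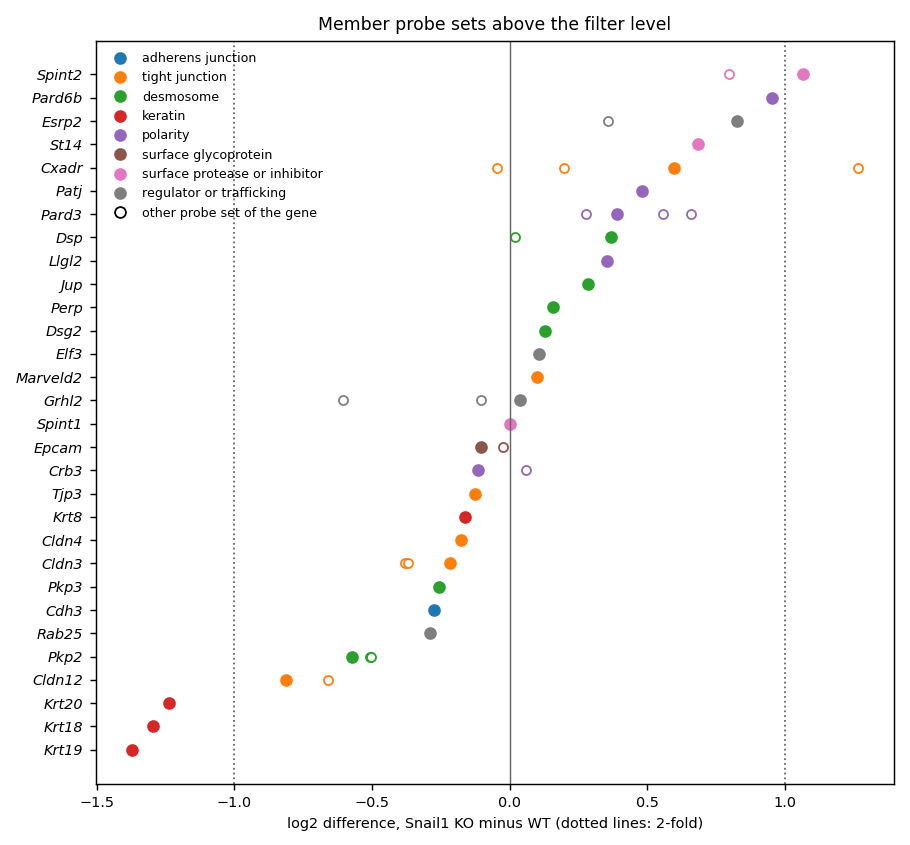
Log2 difference (Snail1 KO minus WT, horizontal axis) of every member probe set above the filter level, with genes in the order of their brightest probe set (filled, coloured by role) and other probe sets of a gene open; dotted lines mark 2-fold. Pard3, Pkp2, Cldn12 and Spint2 keep their side of 0 in all probe sets shown, whereas Cxadr, Grhl2 and Crb3 have probe sets on both sides.

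Of the adherens junction cadherins, Cdh3 (P-cadherin) was at 4.27 and 3.997 and its other probe set, also near the filter level, at 3.99 and 3.87. Of the 8 desmosome members 6 were analysed, none past 1.5-fold, with a median of 0.14. Among 4 other desmosome genes on the array, the 1 analysed was Pkp4, which differed by 0.14. Pkp2 (plakophilin-2), an armadillo protein of the desmosomal plaque, was at 8.71 and 8.14, 1.49-fold lower, and all 4 of its probe sets were lower. Dsp (desmoplakin), which ties the plaque to filaments, was at 7.57 and 7.94 in its brightest probe set and at 6.18 and 6.20 in the next. Jup (plakoglobin), which also binds VE-cadherin, was at 7.77 and 8.05, and Perp, a membrane protein needed for desmosomes in skin, at 8.15 and 8.31. The desmosomal cadherin gene Dsg2 was at 4.46 and 4.59, and Pkp3 at 4.74 and 4.48. Dsc2, the partner cadherin, was at 3.45 and 4.30, 1.81-fold higher, but its mean lay below the filter level, and its other probe set differed by 0.31.

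Matriptase and its inhibitors were higher or equal. Spint2, which encodes the Kunitz-type inhibitor HAI-2, was at 7.76 on the WT array and 8.83 on the Snail1 KO array, 2.09-fold higher, with 96 of the 12874 analysed genes as high or higher. This probe set is of a type that can bind several transcripts; the other probe set of Spint2 was at 7.35 and 8.15, 1.74-fold higher. St14, which encodes the membrane protease matriptase, was at 6.28 and 6.96, 1.61-fold higher in its only probe set. Spint1, the inhibitor HAI-1, was at 4.71 on both arrays. The surface glycoprotein gene Epcam was at 4.85 and 4.75, and its second probe set at 4.74 and 4.71.

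Among regulators of the epithelial state, Esrp2, an epithelial splicing factor, was at 5.69 and 6.52, 1.78-fold higher, with 0.36 in its other probe set, while its relative Esrp1 was dim on both arrays, at 2.74 and 2.56. Grhl2, a transcription factor that activates Cdh1, was at 5.42 and 5.46, and its other probe sets differed by -0.61 to 0.27. Elf3, an ETS factor of epithelia, was at 4.98 and 5.08. Rab25, a small GTPase of apical recycling, was at 5.48 and 5.19. None of these but Esrp2 passed 1.5-fold in its brightest probe set.

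Over the 11 member genes with more than 1 probe set above the filter level, 8 showed differences of the same sign throughout. Of 19 members with a mean log2 value of up to 6, 12 were lower, with a median of -0.13 beside -0.05 for the 3473 genes in that range. The 6 members between 6 and 8 were all higher, with a median of 0.38 beside 0.04 for the 3685 genes in that range. Above 8, 3 of 5 were higher, with a median of 0.16 beside -0.01 for the 5716 genes in that range. The shares of all genes higher or lower within each range were not counted, so these counts cannot be read as a property of the members.

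Promoter windows were available from RefSeq (GRCm38.p6) for 28 of the 45 members, each covering 250 bases before to 50 bases after a transcription start. The other members, Cdh1 among them, were not searched. The available windows were searched for the E-box CACCTG, read on both strands as CACCTG or CAGGTG, which is the form that Snail factors bind. At least 1 E-box was present in 20 of the 28 members (71.4%), beside 22.6% of 27025 genes, and at least 2 in 11 members (39.3%), beside 3.32% of genes. Per window the shares were 62.2% of 37 member windows and 20.2% of all 32851 windows. Members with and without an E-box were found on both sides of 0. Of 15 analysed members with an E-box, 7 were higher and 8 lower, with a median difference of -0.10, and of 4 without an E-box, 2 were higher and 2 lower, with a median of -0.41. Of the 4 members with at least 3 E-boxes in a window, Spint2, Patj and Pard3 were higher and Crb3 was not. The share of all genes with at least 3 was not counted. Of the analysed members with 2 E-boxes, Pard6b was higher, and Cldn4, Epcam and Rab25 were lower. A match is a sequence description, and binding of Snail1 was not measured.

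The 250 bases before the transcription start of 5 members are shown to place these E-boxes beside the values above, each 5′ to 3′ on the strand of its gene, with E-boxes in capitals. They are the member past 2-fold higher (Spint2, chr7:29281978-29282227, minus strand), the polarity gene with the next largest positive difference (Pard6b, chr2:168080754-168081003, plus strand), the member with the most E-boxes in its window and nearly equal values (Crb3, chr17:57061951-57062200, plus strand), an epithelial marker with nearly equal values (Epcam, chr17:87635729-87635978, plus strand) and a keratin past 2-fold lower (Krt18, chr15:102027966-102028215, plus strand).
Spint2: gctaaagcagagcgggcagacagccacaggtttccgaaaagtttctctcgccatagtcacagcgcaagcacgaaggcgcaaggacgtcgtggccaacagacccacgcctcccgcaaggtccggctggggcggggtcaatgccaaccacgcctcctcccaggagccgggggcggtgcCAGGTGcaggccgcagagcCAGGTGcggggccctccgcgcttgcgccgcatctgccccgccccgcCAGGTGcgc
Pard6b: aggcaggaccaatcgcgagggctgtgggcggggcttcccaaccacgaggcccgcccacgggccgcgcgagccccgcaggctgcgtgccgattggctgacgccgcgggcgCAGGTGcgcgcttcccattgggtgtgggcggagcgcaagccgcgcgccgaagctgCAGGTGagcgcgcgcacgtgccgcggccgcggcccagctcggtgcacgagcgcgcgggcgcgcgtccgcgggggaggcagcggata
Crb3: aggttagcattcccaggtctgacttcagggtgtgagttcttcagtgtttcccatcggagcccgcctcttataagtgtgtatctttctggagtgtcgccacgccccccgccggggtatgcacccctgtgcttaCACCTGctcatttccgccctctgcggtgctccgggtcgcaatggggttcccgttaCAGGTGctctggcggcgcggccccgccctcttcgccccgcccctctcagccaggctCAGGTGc
Epcam: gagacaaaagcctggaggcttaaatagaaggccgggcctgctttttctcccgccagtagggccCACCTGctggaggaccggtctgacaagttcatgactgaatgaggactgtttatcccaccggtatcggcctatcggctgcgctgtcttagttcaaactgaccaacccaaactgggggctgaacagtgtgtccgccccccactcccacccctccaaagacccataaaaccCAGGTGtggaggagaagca
Krt18: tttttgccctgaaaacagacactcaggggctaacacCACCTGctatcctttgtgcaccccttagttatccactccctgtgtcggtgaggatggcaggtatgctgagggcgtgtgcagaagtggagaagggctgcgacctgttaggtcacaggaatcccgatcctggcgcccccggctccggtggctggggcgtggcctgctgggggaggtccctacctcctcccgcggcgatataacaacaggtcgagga

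In Spint2 the E-boxes began 74, 55 and 9 bases before the start, and in Pard6b 141 and 86 bases before it. Crb3 had 3 within these bases, from 118, 63 and 7 bases before the start, and a further E-box after it. In Epcam they began 187 and 19 bases before the start, and in Krt18 the only E-box began 214 bases before it. Among the genes shown, those with E-boxes close to the start had higher values (Spint2) or nearly equal values (Crb3 and Epcam). These promoters were chosen by their values, so they do not show how the members divide. Of members not shown, Rab25, Cldn4 and Tjp3 also had E-boxes close to the start, with negative differences (-0.29, -0.18 and -0.13). Patj had them with a positive difference (0.48).

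**Figure D5:**
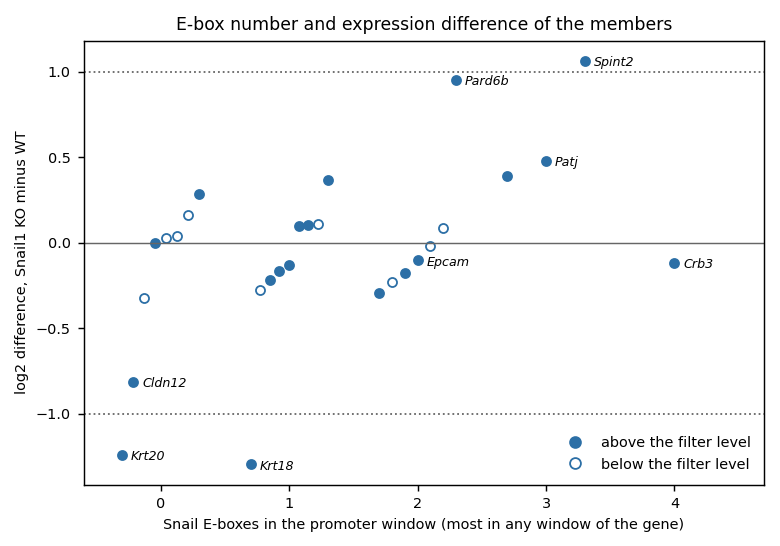
Log2 difference (Snail1 KO minus WT, vertical axis) of the 28 members with a promoter window against the number of E-boxes in the window with the most (horizontal axis, points spread sideways within a number); filled points were above the filter level and dotted lines mark 2-fold. Points with 1 or 2 E-boxes lie on both sides of 0, and Krt20 and Cldn12, without an E-box, are among the lowest.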

How the data were processed

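Expression was measured on 2 Affymetrix mouse arrays, 1 per group, grouped by sample title. The values are log2 expression per probe set, deposited by the authors after RMA (affy package), per the submitters' processing notes; tool versions are not given in the sources used for this work. RMA corrects background, forces the arrays towards the same distribution of values and compresses differences of dim probe sets. The number of arrays limits the precision, and signal over background was not measured for single probe sets.

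Of 45101 probe sets, 64 were array controls, 34945 carried 1 gene symbol in GEO's platform annotation and were used, 932 carried several and 9160 had none here. For each gene the brightest probe set, by its mean over both arrays, was used, and the gene was analysed if that mean exceeded the 40th percentile of non-control probe sets. Differences are Snail1 KO minus WT, counted at 2-fold (1 log2 unit). With 1 array per group no test was run and no error of a difference can be given. In simulated data with 12874 genes, independent noise had the size of the spread of differences over genes, which is not the spread between cultures. There, 90.7% of genes changed by 1.5 log2 units and 100% of those changed by 2.5 units passed 2-fold in the right direction. Of 12674 unchanged genes, 19 passed 2-fold in either direction. These shares check the counting only and are no error rates for the measured differences.

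Members, lists and the rule for naming genes were chosen with earlier results of these data known. Every member is accounted for, and of other genes Snai1, Snai2, Zeb1, Zeb2, Cdh5, Pecam1, Cldn5, Vim and those past 2-fold in lists of neighbouring genes are named, beside markers of other cell types. Pard6a, Prkci, Pkp4, Krt4, Krt6a, Krt10, Krt23 and Krt80 fall outside that rule and were picked with their values in view. E-boxes were searched in RefSeq promoter windows of GRCm38.p6. Alternatives covered the filter, the choice of probe sets, the centring and the size threshold. Python 3.11.15, pandas 2.3.3, numpy 2.4.6 and matplotlib 3.10.9 were used.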

Additional observations from a re-analysis of the deposited data

How the results depend on the processing

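With 1 array per group, none could be left out. No paired analysis was possible because each group holds 1 array. All 3 keratins were counted as lower under 8 of 10 alternatives, the exceptions being the filter at the 60th percentile and the 3-fold threshold. That count says little, because most of the 8 could not have removed them. Each keratin had 1 probe set, so changing how probe sets were chosen left it as it was. A looser filter or threshold could only keep them, and centring shifted their values by little. With the filter at the 60th percentile, 14 members were analysed, only Krt19 was 2-fold lower, as the mean values of Krt18 and Krt20 fell under the filter, and the median of the members was 0.32. The median was -0.020 with no filter and -0.064 when the probe sets of each gene were averaged, so its sign is not settled. No member was 2-fold higher after averaging (0 genes) or once the probe sets open to cross-binding were left out, since Spint2 then differed by 0.93 and 0.80. At 1.5-fold 5 members were higher, and at 3-fold 0 were higher and 0 lower. Grhl2 changed sign after averaging, at -0.10, and Dsp differed by 0.02 without its cross-binding probe set. Dsp apart, no single-gene difference moved by more than the robust SD of all genes. This covers averaging (25 members analysed), leaving out such probe sets (29) and centring (30). Dsg2, Krt8, Pard6b, Patj and Pkp3 were no longer analysed after averaging, nor was Jup without such probe sets, so their differences could not be compared there. Dim values limit what can be read for the 13 members below the filter level on both arrays.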
